A study of Mus musculus with 14 samples.

Results

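Transformation by the BCR-ABL p210 fusion was followed in progenitor lines labelled as Cdk6 knockouts, by comparing 4 knockout (KO) libraries from p210-transformed cells with 3 KO libraries from untransformed cells. These 7 libraries were chosen by their titles, out of 14 in the series, and differences are given as p210 minus untransformed. The lines are HPC-LSK lines, cultured mouse progenitors of blood cells that resemble marrow cells without lineage markers and with Sca-1 and Kit on their surface (LSK cells). The other 7 libraries come from Cdk6 wild-type (WT) lines, 4 untransformed and 3 with p210. They show where the KO lines changed differently. They also stand in the same fit as the KO libraries, so the spread behind the p-values of the KO comparison rests on them too. All 7 KO libraries are labelled with the CDK6 KO genotype and the C57BL/6N strain, though Cdk6 RNA in 1 of them goes against its label, as given below, and the labels give neither the deleted exons nor how p210 was delivered. By the protocol, untransformed cells grew on agarose plates in IMDM with 12.5 ng/ml IL-6 and 2% SCF, while p210 cells grew without either cytokine. Transformation and cytokine withdrawal therefore cannot be told apart in any result here. The letters SCF also stand in the descriptions of p210 samples, and what they mean there is not settled by the labels. A code and letter in the descriptions were read as the line: KO untransformed replicates 1, 2 and 3 are lines KO_080219_A, KO_080219_B and KO_140119_B, and KO p210 replicates 1, 2 and 4 are the same 3 lines. KO p210 replicate 3 is line KO_140119_A, which has no untransformed KO partner. The labels do not say whether replicates are separate derivations or separate cultures, so p-values measure only the spread between these samples.

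BCR-ABL p210 is the constitutively active tyrosine kinase of chronic myeloid leukaemia, made by fusion of BCR to ABL1. It phosphorylates STAT5, recruits GRB2 and SOS to activate RAS and ERK, and allows progenitors to grow without the cytokines that normally keep them alive. CDK6 is a kinase that pairs with D-type cyclins to phosphorylate RB in G1, is antagonised by the INK4 inhibitors, and also acts at chromatin in haematopoietic cells. STAT5 and ERK switch on their own inhibitors, the SOCS proteins and the dual-specificity phosphatases, whose transcripts are often used to follow these pathways.

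The KO libraries held 20912805 to 50303271 counts and 18105 to 20492 detected genes, with 1.74% to 2.07% of counts from mitochondrial genes. Levels are given as CPM, counts divided by library size after scaling by the TMM method. Cdk6 was at 271, 258 and 236 CPM in untransformed replicates 1 to 3, against a mean of 1122 in WT untransformed libraries. In KO p210 replicates 1 to 4 Cdk6 stood at 326, 578, 245 and 163, against a mean of 593 in WT p210 libraries. The library labelled KO p210 replicate 2 thus had as much Cdk6 RNA as WT p210 cells, and the remaining 6 KO libraries lay between 162.6 and 325.5 CPM. Where in the gene these reads lie is not shown by counts per gene. Reads of the fusion would be counted on Bcr and Abl1 where they map to the mouse genes. Both genes were higher in every p210 library, but counts per gene do not separate reads of the fusion from those of the genes themselves. Bcr was at 70.8, 68.5 and 73.6 CPM before and 274, 312, 281 and 339.7 CPM after transformation, a log2 fold change of 2.09 ± 0.17 (SE, adjusted p = 1.12e-05). Abl1 went from 227, 206 and 234 CPM to 528, 531, 499 and 579.7 CPM (1.27 ± 0.14, adjusted p = 6.13e-05). Lhx2, the LIM homeobox gene whose forced expression is used to derive such lines, was abundant in all 7 libraries, at 1521, 1246 and 2376 CPM and then 1387, 1724, 2573 and 4377 CPM, and did not pass the test (0.55 ± 0.40, adjusted p = 0.297). Kit, one of the markers of the LSK fraction, was abundant only before transformation, as given with the receptors. Ly6a, which encodes Sca-1, was at 26.8, 26.4 and 42.2 CPM and then 29.1, 11.8, 0.553 and 2.07 CPM, low in p210 replicates 3 and 4, and did not pass the test (adjusted p = 0.222) except without KO p210 replicate 1 (0.0447).

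Of 14512 genes tested, 5395 (37.2%) passed an adjusted p of 0.05 in edgeR's quasi-likelihood test with Benjamini-Hochberg adjustment, the test behind every adjusted p below. In p210 cells 2790 genes (19.2%) were higher and 2605 (18.0%) lower, and these shares are the background against which counts within gene groups are read. Past 2-fold, 1037 genes (7.15%) were higher and 1187 (8.18%) lower. For 6697 genes (46.1%) the 4 p210 libraries lay entirely above or below the 3 untransformed ones. Across the 500 most variable genes, principal component 1 separated the states with 77.6% of the variance, and component 2, with 10.4%, spread the p210 libraries, with replicate 4 at one end. Untransformed libraries correlated with each other at 0.983 to 0.992 across genes and p210 libraries at 0.948 to 0.977, a description in which genes are not replicates. With the line as a block, 3586 genes passed, of which 3373 had passed without it in the same direction. Scaling by total counts left 5559 calls but moved the share of higher genes among them from 51.7% to 37.7%, with a shift of -0.11 in the median log2 fold change, and upper-quartile scaling gave 41.9%. Without the library labelled KO p210 replicate 2 the count was 4820, and without KO p210 replicate 4 it was 5247. Within code KO_080219, with 2 KO libraries per state, 4139 genes passed. Code KO_140119 has 1 untransformed and 2 p210 KO libraries. In each fit within a code, here and below, the WT libraries with the same code were kept beside the KO ones. Among libraries from 1 sequencing run, 1456 passed, and with the number of runs as a term 5131 did.

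**Figure D1:**
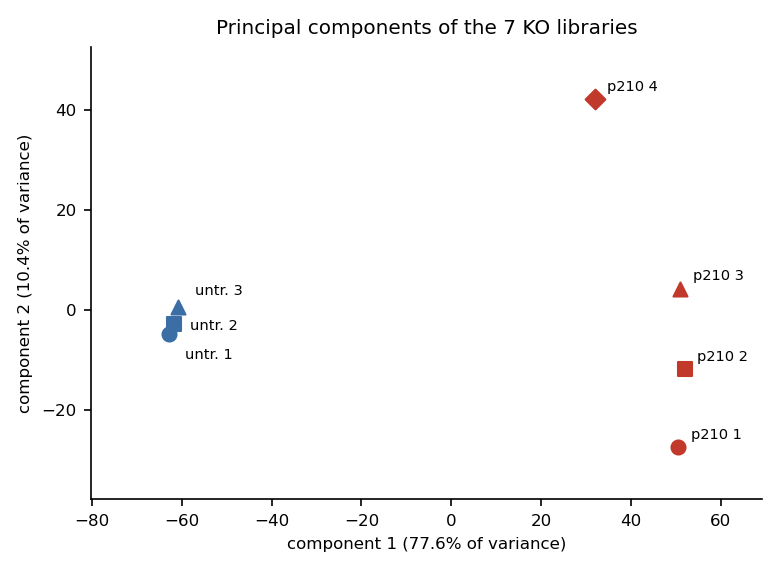
Scores of the 7 KO libraries on the first and second principal components of log2 CPM over the 500 most variable genes, with axes labelled by their share of the variance (77.6% and 10.4%). The 3 untransformed libraries lie together at the left, and the 4 p210 libraries lie at the right, spread along the second axis with replicate 1 lowest and replicate 4 highest.

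Of the feedback inhibitors of cytokine signalling, Socs1, Socs2 and Cish rose and Socs3 fell. Of 14 members of the STAT5 and cytokine feedback list, all tested, 9 were higher (19.2% of all genes were) and 1 lower (2 lower with upper-quartile scaling, scaling by total counts or limma-voom, within code KO_080219, or without KO p210 replicate 4), and the median log2 fold change was 0.96 beside -0.01 over all genes. Socs2, a suppressor of cytokine signalling induced by STAT5, was at 4.14, 3.72 and 5.82 CPM in untransformed libraries and 98.4, 94.8, 117 and 111 CPM in p210 libraries. All 4 p210 values lay close together and far above the others (log2 fold change 4.52 ± 0.31, adjusted p = 5.80e-06). Cish (chromosome 9, 107296026 to 107302784, GRCm38), a further STAT5-induced inhibitor, went from 9.50, 7.92 and 7.68 CPM to 301, 184, 85.9 and 100.1 CPM. It was highest in the 2 lines of code KO_080219 and did not overlap between states (4.33 ± 0.43, adjusted p = 4.75e-05). Socs1 stood at 0.909, 1.49 and 1.36 CPM and then 21.95, 16.2, 5.18 and 6.32 CPM, with the same 2 libraries on top (3.30 ± 0.49, adjusted p = 0.000416). Socs3, which is induced chiefly by STAT3 downstream of IL-6 receptors, went the other way, from 66.7, 69.4 and 61.2 CPM to 22.9, 21.4, 14.5 and 12.1 CPM. Every p210 library was below every untransformed one (-1.89 ± 0.21, adjusted p = 6.75e-05). Among the list's survival and growth genes, Bcl2l1, which encodes the anti-apoptotic BCL-XL, rose from 55.1, 47.4 and 55.8 CPM to 119, 128, 84.1 and 98.7 CPM (1.03 ± 0.18, adjusted p = 0.000989). Ccnd2, the D-type cyclin that partners CDK4 and CDK6, rose from 351, 289 and 369.5 CPM to 717, 707, 590.3 and 522 CPM (0.91 ± 0.15, adjusted p = 0.000892). Pim1, a STAT5-induced survival kinase, was higher at 436, 541, 409 and 480.2 CPM against 309, 323 and 275 CPM (0.63 ± 0.18, adjusted p = 0.0151), a call that was lost without KO untransformed replicate 3 (adjusted p = 0.0586). Mcl1, a further survival gene, did not pass the test (-0.27 ± 0.11, adjusted p = 0.0868), but did with upper-quartile scaling or scaling by total counts (adjusted p = 0.0328 and 0.0244).

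STAT5 binds DNA at the palindrome TTCNNNGAA, and the windows below are shown because they are the stretches of these promoters that hold its letters. RefSeq promoter windows on GRCm38.p6, from 250 bases before to 50 bases after each start, were searched for TTCNNNGAA, which is its own reverse complement, so that both strands are covered by 1 search. The letters were present in 2726 of 32851 windows (8.3%). Of the 14 list members 10 were matched to 14 windows, and 4 of these windows, belonging to Cish, Socs3 and Bcl6, held them. Capitals mark the motif, and each site is printed 5′ to 3′ on the gene's strand.
Cish, chr9:107296654-107296683, plus strand: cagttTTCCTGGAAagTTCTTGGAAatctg
Socs3, chr11:117969501-117969530, minus strand: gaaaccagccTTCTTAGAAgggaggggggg
Bcl6, chr16:23988951-23988980, minus strand: agcaaattagTTCTCAGAAttccagaggcc
Bcl6, chr16:23981432-23981461, minus strand: aggccgcggcTTCCTGGAAagttacttctc
The Cish site holds 2 copies separated by 2 bases, the first of them at the annotated start. The Socs3 copy begins 154 bases before its start. The Bcl6 copies printed begin 118 and 168 bases before theirs, and the second of these windows holds 3 in all. Of these 3 genes, Cish rose, Socs3 fell, and Bcl6, a transcriptional repressor, was at 22.4, 26.1 and 25.7 CPM and then 10.4, 12.9, 11.1 and 27.6 CPM (adjusted p = 0.177, and 0.0171 without KO p210 replicate 4, where it was lower). A match is a description of letters and not a measured site, and counts of RNA do not show binding.

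Over all libraries, many cytokine and chemokine genes rose in p210 cells, and the receptors for both withdrawn cytokines fell. Of 29 cytokines and chemokines tested, 13 were higher (background 19.2%) and 4 lower (background 18.0%), with a median log2 fold change of 1.19. The number higher was 7 by limma-voom or without any 1 of the 3 untransformed libraries and 8 without KO p210 replicate 1, shares nearer the background. The number lower was 2 without KO untransformed replicate 1 or KO p210 replicate 1. Lif, an IL-6 family cytokine that signals through Il6st, was at 1.86, 1.45 and 1.51 CPM before and 189.7, 86.03, 37.04 and 26.8 CPM after transformation. It was highest in the 2 lines of code KO_080219, and the lowest p210 value was still far above the highest untransformed one (5.73 ± 0.69, adjusted p = 0.000127). Il6, the cytokine withdrawn from the medium, stood at 7.23, 6.04 and 3.83 CPM and then 147, 31.6, 45.3 and 46.3 CPM, with replicate 1 highest (3.57 ± 0.74, adjusted p = 0.00322). Csf1, the macrophage growth factor, went from 10.7, 13.7 and 6.66 CPM to 325, 162, 39.5 and 33.1 CPM (3.76 ± 0.79, adjusted p = 0.00343). The chemokine gene Ccl6 rose from 113, 118 and 74.2 CPM to 3132, 1930, 722 and 2081 CPM (4.28 ± 0.62, adjusted p = 0.000387), and Flt3l, the ligand of FLT3, from 5.45, 3.999 and 4.21 CPM to 14.8, 14.3, 9.95 and 9.28 CPM (1.41 ± 0.25, adjusted p = 0.00132). Il13, a type 2 cytokine gene, had 2 counts in the untransformed libraries together and 289 in the p210 libraries, a ratio of 135 (95% exact interval 37.1 to 1120, counting error only). Il10 fell from 1.05, 0.588 and 0.314 CPM to 0.0523, 0, 0.116 and 0 CPM (-3.68 ± 0.85, adjusted p = 0.00552).

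Of 30 cytokine and growth factor receptors tested, 4 were higher and 11 lower (background 18.0%), and the median log2 fold change was -0.49. Kit, the SCF receptor, stood at 276, 247 and 254 CPM in untransformed libraries and 14.95, 36.4, 31.3 and 42.7 CPM in p210 libraries. The states did not overlap (-3.04 ± 0.29, adjusted p = 3.31e-05). Il6st, the signalling chain shared by IL-6 family receptors, fell from 73.8, 102 and 63.6 CPM to 2.51, 0.502, 0.262 and 4.06 CPM, nearly lost in replicate 3 and in the library labelled replicate 2 (-5.48 ± 0.85, adjusted p = 0.000601). Il6ra, the ligand-binding chain for IL-6, fell from 129, 152 and 146 CPM to 27.7, 53.6, 47.96 and 40.9 CPM (-1.74 ± 0.26, adjusted p = 0.000507). Lifr fell from 5.82, 5.88 and 5.19 CPM to 0.366, 0.193, 0 and 0.0390 CPM (-5.32 ± 0.97, adjusted p = 0.00153). Il6 and Lif were thus higher in the same libraries in which the receptor chains for both were lower. Flt3, the receptor of the ligand encoded by Flt3l, fell from 6.998, 7.61 and 7.78 CPM to 0.418, 0.193, 0.786 and 0.312 CPM (-4.10 ± 0.63, adjusted p = 0.000555). Ifngr1, a chain of the interferon gamma receptor, fell from 468, 563 and 354 CPM to 89.3, 149.5, 95.3 and 113 CPM (-2.05 ± 0.30, adjusted p = 0.000416). The 4 receptors that rose were Csf2rb and Csf2rb2, the shared beta chains of the IL-3, IL-5 and GM-CSF receptors, Il10ra, and Il18r1. Il18r1, a chain of the IL-18 receptor, was at 6.32, 4.47 and 4.91 CPM and then 227, 181, 192 and 204 CPM (5.27 ± 0.60, adjusted p = 9.47e-05). Csf2rb was at 573, 655 and 539 CPM and then 2125, 1357, 1058 and 1460 CPM (1.35 ± 0.28, adjusted p = 0.00318). Csf2rb and Csf2rb2 are close copies, and reads may be split between them.

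**Figure D2:**
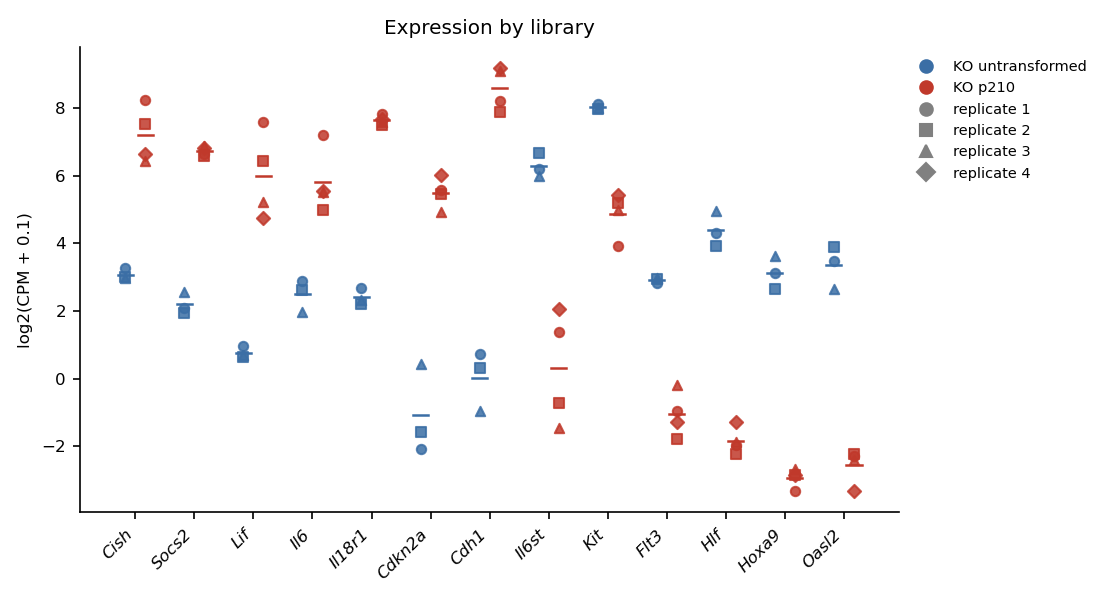
log2(CPM + 0.1) of 13 genes in each of the 3 untransformed and 4 p210 KO libraries, 1 point per library. Cish, Socs2, Lif, Il6, Il18r1, Cdkn2a and Cdh1 are higher in all 4 p210 libraries, and Il6st, Kit, Flt3, Hlf, Hoxa9 and Oasl2 are lower in all 4.

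Several ERK feedback and immediate early genes rose, and a share under the background fell. Of 24 such genes, 8 were higher and 3 lower (background 19.2% and 18.0%), with a median of 0.17. The counts were 4 higher without KO untransformed replicate 2 and 1 lower without KO untransformed replicate 1. Dusp4, a nuclear phosphatase of ERK, rose from 15.8, 12.04 and 8.81 CPM to 61.2, 62.4, 66.8 and 59.7 CPM, the same level in all 4 p210 libraries (2.36 ± 0.25, adjusted p = 5.63e-05). Dusp5, a related phosphatase, rose from 20.2, 19.3 and 13.01 CPM to 80.9, 79.4, 63.9 and 69.1 CPM (2.07 ± 0.52, adjusted p = 0.00875). Fosl1, the AP-1 subunit FRA1, rose from 4.27, 3.33 and 3.44 CPM to 11.3, 12.6, 21.5 and 17.2 CPM (2.09 ± 0.36, adjusted p = 0.000972). Spry2, a Sprouty inhibitor of receptor signalling to RAS, fell from 26.2, 22.97 and 20.5 CPM to 11.6, 9.96, 14.3 and 14.6 CPM (-0.88 ± 0.19, adjusted p = 0.00418). Among 22 partners of BCR-ABL and signalling adaptors, 5 were higher and 4 lower, shares near the background of 19.2% and 18.0%, and 3 higher and 2 lower with the line as a block. Without KO untransformed replicates 1, 2 or 3 the number higher was 3, 3 or 2, and the number lower was 0 and 1 without the first and second of these, and 2 without WT untransformed replicate 4, KO p210 replicate 1 or KO p210 replicate 4. The kinase gene Jak2 rose from 159, 173 and 159.6 CPM to 291, 309, 304 and 343 CPM (0.93 ± 0.15, adjusted p = 0.00057), and Sos1, the exchange factor for RAS, from 34.2, 38.3 and 36.1 CPM to 58.1, 51.9, 78.4 and 58.6 CPM (0.77 ± 0.13, adjusted p = 0.000972).

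Of the 4 INK4 inhibitor genes, the neighbours Cdkn2a and Cdkn2b rose, and Cdkn2c and Cdkn2d fell. Of 23 G1 regulators, 8 were higher (background 19.2%) and 5 lower, near the background of 18.0% (3 with the line as a block). Cdkn2a (chromosome 4, 89274471 to 89294653, GRCm38), which encodes p16 INK4A and p19 ARF, was at 0.136, 0.235 and 1.24 CPM in untransformed libraries and 47.7, 43.8, 30.00 and 65.01 CPM in p210 libraries. It was near the detection limit in lines KO_080219_A and KO_080219_B before transformation, a little higher in KO_140119_B, and high in every p210 library (6.25 ± 0.83, adjusted p = 0.000236). Counts per gene do not separate the 2 products. Its neighbour Cdkn2b (89306289 to 89311032), which encodes p15 INK4B, rose from 0.682, 0.510 and 1.81 CPM to 12.2, 19.6, 12.02 and 26.1 CPM (4.08 ± 0.51, adjusted p = 0.000154). Cdkn2c, which encodes p18 INK4C, fell from 15.7, 12.8 and 12.6 CPM to 3.55, 4.17, 5.15 and 6.94 CPM (-1.46 ± 0.21, adjusted p = 0.000377). Cdkn2d, which encodes p19 INK4D, fell from 76.9, 71.8 and 67.7 CPM to 23.6, 31.1, 35.1 and 42.1 CPM (-1.13 ± 0.25, adjusted p = 0.00415, and 0.0543 with the line as a block). Cdkn1a, the p21 inhibitor induced by p53, rose from 137, 108 and 78.97 CPM to 489, 295, 279 and 253 CPM (1.60 ± 0.26, adjusted p = 0.00074). Cdk4, the partner kinase that remains in Cdk6-deficient cells, fell by 0.34 on the log2 scale, from 535, 484 and 582 CPM to 440.2, 409, 431 and 403 CPM (adjusted p = 0.00262), and Cdk2 rose (0.77 ± 0.14, adjusted p = 0.0013). Within code KO_080219 alone, Cdk4 and Cdk2 had adjusted p of 0.0751 and 0.0545.

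Most DNA replication genes fell, by small amounts. Of 34 members, 27 were lower and none higher, 1 of them past 2-fold, with a median of -0.43. In 28 of the 34 every p210 library was below every untransformed one, beside 23.5% of all genes tested. Pola1, the catalytic subunit of the primase-polymerase complex, fell from 153, 149.8 and 196 CPM to 86.5, 81.6, 79.4 and 80.3 CPM (-1.02 ± 0.09, adjusted p = 2.03e-05). Lig1, the ligase that joins Okazaki fragments, fell from 144, 131 and 159 CPM to 77.9, 71.8, 69.1 and 78.3 CPM (-0.96 ± 0.09, adjusted p = 3.55e-05). Rfc3, a clamp loader subunit, changed by -0.71 ± 0.09 (adjusted p = 0.000176), and Mcm3, of the replicative helicase, by -0.71 ± 0.11 (adjusted p = 0.000554). Of 24 mitosis genes, 5 were higher and 1 lower, which is close to or under the background, and with the line as a block 3 were higher and none lower. With scaling by total counts 2 were higher, and with upper-quartile scaling or in the 7 KO libraries alone 3 were. That number was also 3 without any 1 of the untransformed libraries, the library labelled KO p210 replicate 2 or KO p210 replicate 3, and the number lower was 0 without KO untransformed replicate 3. Aurka, a spindle kinase, was at 46.4, 48.02 and 43.96 CPM and then 58.3, 71.4, 83.4 and 68.8 CPM (0.61 ± 0.14, adjusted p = 0.00543). The proliferation marker Mki67 stood at 438, 463 and 498 CPM and then 359, 398, 563 and 503 CPM (adjusted p = 0.886), and Top2a at 696, 693 and 752 CPM and then 659, 708, 699 and 629 CPM (adjusted p = 0.387), both overlapping.

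Many p53 targets rose. Of 24 p53 pathway genes, 15 were higher and none lower (1 lower in the 7 KO libraries alone, without WT p210 replicate 1 or without KO p210 replicate 4), with a median of 0.85, and 16 had all p210 libraries above (background 22.6%). Sesn2, a stress-induced inhibitor of mTORC1, rose from 25.4, 24.6 and 27.2 CPM to 64.4, 58.7, 69.1 and 75.4 CPM (1.38 ± 0.12, adjusted p = 2.05e-05). Ccng1, a cyclin-family p53 target, rose from 126, 131 and 153 CPM to 389, 302, 315 and 329 CPM (1.29 ± 0.13, adjusted p = 4.93e-05). Polk, a translesion polymerase, rose from 11.04, 13.02 and 10.2 CPM to 36.8, 24.8, 26.4 and 26.6 CPM (1.33 ± 0.14, adjusted p = 6.13e-05). Bax, the pore-forming effector of apoptosis, rose from 62.7, 61.5 and 70.8 CPM to 147, 117, 104 and 113 CPM (0.89 ± 0.11, adjusted p = 0.000154). In the BCL2 family, 3 of 14 tested genes were lower, near the background of 18.0% (1 lower without KO untransformed replicate 1 or 2). The number higher was 8 (background 19.2%), and those that rose include both sides of the family. Beside Bax and Bcl2l1 these were Bak1, a second effector (0.44 ± 0.07, adjusted p = 0.00066), and Bcl2l2, a protective member (0.48 ± 0.12, adjusted p = 0.00684). Bok, a further effector-like member, had 28 counts before and 1 after transformation, a ratio of 29.9 (95% exact interval 4.94 to 1220).

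Most antioxidant genes and many amino acid stress genes rose. Of 18 targets of NRF2, the transcription factor of the oxidant response, 13 were higher and 1 lower, with a median of 1.73. Gclc, the catalytic subunit of the first enzyme of glutathione synthesis, rose from 92.7, 91.1 and 106 CPM to 489, 417, 744 and 564 CPM (2.52 ± 0.26, adjusted p = 5.90e-05). Nqo1, a quinone reductase, rose from 7.04, 5.76 and 9.45 CPM to 121, 61.4, 50.2 and 102 CPM (3.48 ± 0.38, adjusted p = 6.78e-05), and Hmox1, haem oxygenase, from 145, 179 and 107 CPM to 1866, 647, 779 and 1884 CPM (3.17 ± 0.57, adjusted p = 0.0014). In each of the 3 genes the lowest p210 library was at least 2-fold above the highest untransformed one. Sod2, the mitochondrial superoxide dismutase, fell (-0.54 ± 0.13, adjusted p = 0.00667, and 0.0852 within code KO_080219). Of 22 integrated stress, serine and amino acid genes, 10 were higher and none lower, with a median of 1.02. Trib3, a pseudokinase induced by ATF4, rose from 3.82, 2.94 and 3.05 CPM to 28.9, 29.8, 44.4 and 38.8 CPM (3.44 ± 0.48, adjusted p = 0.000319). Slc3a2, the heavy chain of the large amino acid transporters, rose from 387, 348 and 346 CPM to 663, 618, 679 and 811 CPM (0.94 ± 0.13, adjusted p = 0.000274). Ddit4, an mTORC1 inhibitor, went from 20.6, 15.4 and 19.1 CPM to 138, 96.5, 64.7 and 96.1 CPM (2.43 ± 0.35, adjusted p = 0.000368). Atf4 itself overlapped between states, at 377, 364 and 339 CPM and then 401, 391, 402 and 329 CPM (adjusted p = 0.629).

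Over all libraries, ribosomal protein, energy, MYC network, lipid synthesis and NF-kB genes were called at shares near or under the background. Of 76 cytosolic ribosomal proteins, 9 were higher and 10 lower (background 19.2% and 18.0%) with a median of -0.04, all 19 by less than 2-fold, and their many processed copies make single members uncertain. The number lower was 26 with scaling by total counts, 21 with upper-quartile scaling, 16 with DESeq2, 6 in the 7 KO libraries alone, 2 within code KO_080219, 3 without KO untransformed replicate 1 or 3, and 6 without KO p210 replicate 4. Leaving out the library labelled KO p210 replicate 2 gave 4. Of 27 glycolysis, pentose phosphate and hypoxia genes, 4 were higher and 5 lower, shares near the background, and 2 in each direction were past 2-fold. The number lower was 3 with the line as a block, 2 within code KO_080219, and 2 or 3 without any 1 of the KO libraries other than the library labelled KO p210 replicate 2. Pdk1, the kinase that restrains entry of pyruvate into mitochondria, fell from 245, 218 and 196 CPM to 61.4, 89.8, 69.4 and 73.2 CPM (-1.58 ± 0.27, adjusted p = 0.00104), while Pgd and Taldo1 of the pentose phosphate pathway rose (0.94 ± 0.16 and 0.80 ± 0.15, adjusted p = 0.00113 and 0.00165). Of 22 genes of the MYC network and ribosome biogenesis, 2 were higher and 3 lower, but 0 and 1 were with the line as a block, 0 and 7 with either scaling by total counts or upper quartile, 4 and 5 with DESeq2 and 5 and 1 within code KO_080219. Of 27 nuclear-encoded oxidative phosphorylation genes, 2 were higher and 5 lower, with 1 and 3 under the line block, 1 and 12 with scaling by total counts, 1 and 11 with upper-quartile scaling and 10 lower with DESeq2. Of 28 genes of cholesterol and fatty acid synthesis, 0 were higher and 4 lower. Of 16 NF-kB subunits and targets, 2 were higher and 2 lower, and the number higher was 1 with the line as a block, by limma-voom or in the 7 KO libraries alone and 6 within code KO_080219. When single libraries were left out, the counts of these 4 lists lay between 0 and 7.

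Many interferon-stimulated genes fell. Of 37 tested, 20 were lower and none higher (1 higher with the line as a block, within code KO_080219 or without KO p210 replicate 3), 16 of the 20 past 2-fold beside 8.18% of all genes, and the median was -0.80. Oasl2, an antiviral oligoadenylate synthetase relative, fell from 11, 14.8 and 6.23 CPM to 0.105, 0.116, 0.0873 and 0 CPM (-7.05 ± 0.64, adjusted p = 2.29e-05). Rtp4 fell from 8.68, 9.49 and 5.05 CPM to 0.105, 0.116, 0.0873 and 0 CPM (-6.59 ± 0.72, adjusted p = 6.92e-05). Both were already low before transformation and nearly absent from all 4 p210 libraries. Ifitm3, a membrane protein that blocks viral entry, fell from 417, 444 and 412 CPM to 95.9, 153, 108 and 161 CPM (-1.71 ± 0.16, adjusted p = 2.97e-05), while its neighbour Ifitm1 overlapped at 2289, 2250 and 2482 CPM and then 2087, 2387, 2697 and 2903 CPM (adjusted p = 0.743). Of 16 genes of MHC class I presentation, 9 were lower and 1 higher, with a median of -0.56. B2m, the light chain of every class I molecule, fell from 1977, 2113 and 2022 CPM to 824, 879.7, 862 and 820.1 CPM, with the 4 p210 libraries within a narrow range (-1.27 ± 0.16, adjusted p = 0.000131). Psmb9, an immunoproteasome subunit, fell from 95.02, 89.97 and 92.7 CPM to 32.4, 33.1, 47.2 and 41.02 CPM (-1.27 ± 0.15, adjusted p = 8.78e-05), and Nlrc5, the activator of class I genes, from 68.2, 76.4 and 83.4 CPM to 4.23, 18.8, 19.2 and 21.2 CPM (-2.26 ± 0.44, adjusted p = 0.00225). H2-T23, a non-classical class I gene, was the one that rose (0.93 ± 0.25, adjusted p = 0.012, and 0.155 within code KO_080219).

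Many transcripts of stem and multipotent progenitor cells were lower in p210 cells. Of 35 tested, 20 were lower and 1 higher, 18 of the 20 past 2-fold, with a median of -1.51. Lmo2, a bridging protein of the stem cell transcription complex, fell from 327, 306 and 409.6 CPM to 100.7, 140.3, 125 and 121 CPM (-1.51 ± 0.19, adjusted p = 0.000174). Hlf, a stem cell transcription factor, fell from 19.5, 15.1 and 31.01 CPM to 0.157, 0.116, 0.175 and 0.312 CPM (-6.82 ± 0.95, adjusted p = 0.000311), and Slamf1, the stem cell surface marker CD150, from 4.73, 4.78 and 8.02 CPM to 0.314, 0, 0.0873 and 0 CPM (-5.97 ± 0.84, adjusted p = 0.000324). Gata2, which serves both stem cells and mast cells, was the member that rose, from 226, 169 and 218 CPM to 438, 391.9, 609 and 600.4 CPM (1.32 ± 0.20, adjusted p = 0.000515). Cd34 overlapped between states, at 899.6, 781 and 1191 CPM and then 990.3, 597, 368 and 607 CPM (adjusted p = 0.158, and 0.0323 without KO p210 replicate 1). In bulk RNA, fewer cells of a type and less RNA per cell cannot be told apart.

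Among 16 Hox genes and cofactors tested, 14 were lower and none higher, and 8 were lower with the line as a block. No count was left after transformation for Hoxa2, Hoxa3, Hoxa4 and Hoxa10, 4 of the 16, so their fitted changes have no firm size, and these 4 did not pass with the line as a block. Hoxa9, a driver of progenitor self-renewal (chromosome 6, 52223100 to 52231089, GRCm38), was at 8.54, 6.23 and 12.2 CPM in untransformed libraries and 0, 0.0386, 0.0582 and 0.0390 CPM in p210 libraries (adjusted p = 0.00574, and 0.191 by limma-voom). Its neighbour Hoxa7 (52214491 to 52221854) was at 13.2, 9.64 and 31.7 CPM and then 0, 0.0772, 0.0582 and 0.0390 CPM, highest in untransformed line KO_140119_B and lost in all p210 libraries (-8.48 ± 1.26, adjusted p = 0.000458). Hoxa5 had 338 counts before and 3 after, a ratio of 120 (95% exact interval 40.8 to 586). Pbx2, a family member that stayed measurable in all libraries, was at 80.9, 80.1 and 85.5 CPM and then 79.02, 82.1, 89.4 and 91.5 CPM (adjusted p = 0.563).

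Several markers of mast cells and basophils rose, and none was called lower over all libraries. Of 21 tested, 9 were higher and none lower, all 9 past 2-fold, with a median of 1.18. In 4 every p210 library was below every untransformed one, a share under the 23.5% of all genes tested. The summed level of the list was 6265 to 6925 CPM before and 14690 to 19310 CPM after transformation. Cd200r3, an activating receptor of basophils and mast cells, rose from 20.5, 17.8 and 13.9 CPM to 356, 197, 355 and 315 CPM (4.14 ± 0.74, adjusted p = 0.00133). Alox5, the 5-lipoxygenase of leukotriene synthesis, rose from 50.03, 55.2 and 22.3 CPM to 751, 711, 299 and 202 CPM, about as unevenly as the cytokines (3.53 ± 0.67, adjusted p = 0.00193). Mcpt8, the basophil granule protease, rose from 267, 260.2 and 387 CPM to 1725, 1728, 3282 and 3319 CPM (3.04 ± 0.76, adjusted p = 0.00894), and Srgn, the granule proteoglycan, from 3013, 2661 and 2893 CPM to 6389, 5163, 5728 and 6156 CPM (1.04 ± 0.20, adjusted p = 0.00198, and 0.0554 within code KO_080219). Cpa3, the mast cell carboxypeptidase, stood at 1667, 1639 and 1451 CPM and then 7704, 5008, 5810 and 6338 CPM (1.97 ± 0.49, adjusted p = 0.00807, and 0.0519 with the line as a block). The 4 members below in every p210 library were Fcer1a, the alpha chain of the IgE receptor, and the mast cell protease genes Mcpt4, Tpsb2 and Cma1. Fcer1a was at 851, 608 and 751 CPM and then 286, 129, 478 and 367 CPM (adjusted p = 0.056, and 0.0439 with the line as a block). Mcpt4 was at 4.54, 4.16 and 41.5 CPM and then 0.157, 0.193, 0.175 and 0.117 CPM, highest in untransformed line KO_140119_B (adjusted p = 0.0524, and 0.0207 with the line as a block). Tpsb2 had the same form (adjusted p = 0.0791, and 0.00672 with the line as a block). The number lower was thus 3 with the line as a block, 4 in the 7 KO libraries alone or within code KO_080219, 2 with scaling by total counts or upper quartile, and 1 with DESeq2 or limma-voom. It was 1, 2, 3 and 2 without WT untransformed replicates 1 to 4, and 1 without KO p210 replicate 3. On the authors' TPM scale, which divides by gene length, Lyz2 and Mpo had the highest mean nuclear-encoded levels in untransformed libraries (22380 and 12430 TPM). In p210 libraries these places were held by Fth1 (18920 TPM), Lyz2 (13830 TPM) and Cpa3 (12310 TPM).

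Several platelet and red cell markers fell. Of 18 megakaryocyte and platelet genes, 9 were lower and none higher, with a median of -3.08, and 5 were lower with the line as a block and 3 by limma-voom. Selp, the platelet and endothelial selectin, fell from 169, 114 and 81.01 CPM to 0.261, 0.695, 1.40 and 0.858 CPM (-7.15 ± 0.68, adjusted p = 3.42e-05), whereas Itga2b and Pf4, the abundant members, overlapped at 863, 534 and 650.4 CPM and then 987, 877, 1080 and 703 CPM, and at 585, 331 and 398 CPM and then 625, 305, 735 and 675 CPM. Of 13 erythroid genes tested, 7 were lower and none higher (4 with the line as a block), and 9 further members, haemoglobin genes among them, were not tested for want of counts. Gata1, the master factor of both lineages, fell from 8.91, 6.94 and 5.15 CPM to 0.470, 0.116, 0.0873 and 0.117 CPM (-5.23 ± 0.84, adjusted p = 0.000703).

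Neutrophil and monocyte genes changed unevenly. Of 35 tested, 8 were lower, near the background of 18.0%, and 2 higher, under the background of 19.2%. With the line as a block 4 were lower and none higher. The number higher was 1 with scaling by total counts or upper quartile or by limma-voom, 5 with DESeq2, 4 in the 7 KO libraries alone and 0 within code KO_080219. Without single KO libraries 2 to 5 were lower: 3, 2 and 5 without KO untransformed replicates 1, 2 and 3, and 3, 4, 3 and 5 without KO p210 replicates 1 to 4. The number higher was 0 or 1 without any 1 of KO untransformed replicates 1 to 3, KO p210 replicate 1, the library labelled KO p210 replicate 2, WT untransformed replicate 2 or 4 or WT p210 replicate 2, and 4 without WT untransformed replicate 3. Mpo, myeloperoxidase, stood at 12840, 14600 and 11580 CPM and then 83.98, 749, 1655 and 1413 CPM, below every untransformed library. Its adjusted p was 0.0413, and it was 0.0937 with the line as a block and above 0.05 without any 1 of the 7 KO libraries, WT untransformed replicate 2 or WT untransformed replicate 4 (highest 0.0893). Lyz2 and Ctsg overlapped between states (adjusted p = 0.528 and 0.902). Of 6 macrophage markers tested, none passed, but 5 were lower without KO p210 replicate 4 or within code KO_080219, 4 by limma-voom, and 1 by DESeq2 or without WT p210 replicate 2. Mrc1, the mannose receptor, shows the pattern, at 123, 136 and 84.5 CPM and then 4.02, 3.28, 1.43 and 51.2 CPM (adjusted p = 0.0599, 0.00199 without KO p210 replicate 4 and 0.0361 without WT p210 replicate 2). Of 13 lymphoid genes tested, 3 were lower, beside a background of 18.0%, and none higher (1 lower without KO untransformed replicate 3, 5 lower without KO p210 replicate 1). The summed level of the lymphoid list was 109 to 187 CPM before and 122 to 244 CPM after. Among 12 dendritic cell and MHC class II genes, 4 were lower and 1 higher (0 higher without KO untransformed replicate 1, 2 without KO p210 replicate 3), with H2-DMa, which loads peptide onto class II molecules, at 36.4, 36.5 and 35.6 CPM and then 9.83, 18.1, 13.6 and 10.96 CPM (-1.46 ± 0.27, adjusted p = 0.00153).

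**Figure D3:**
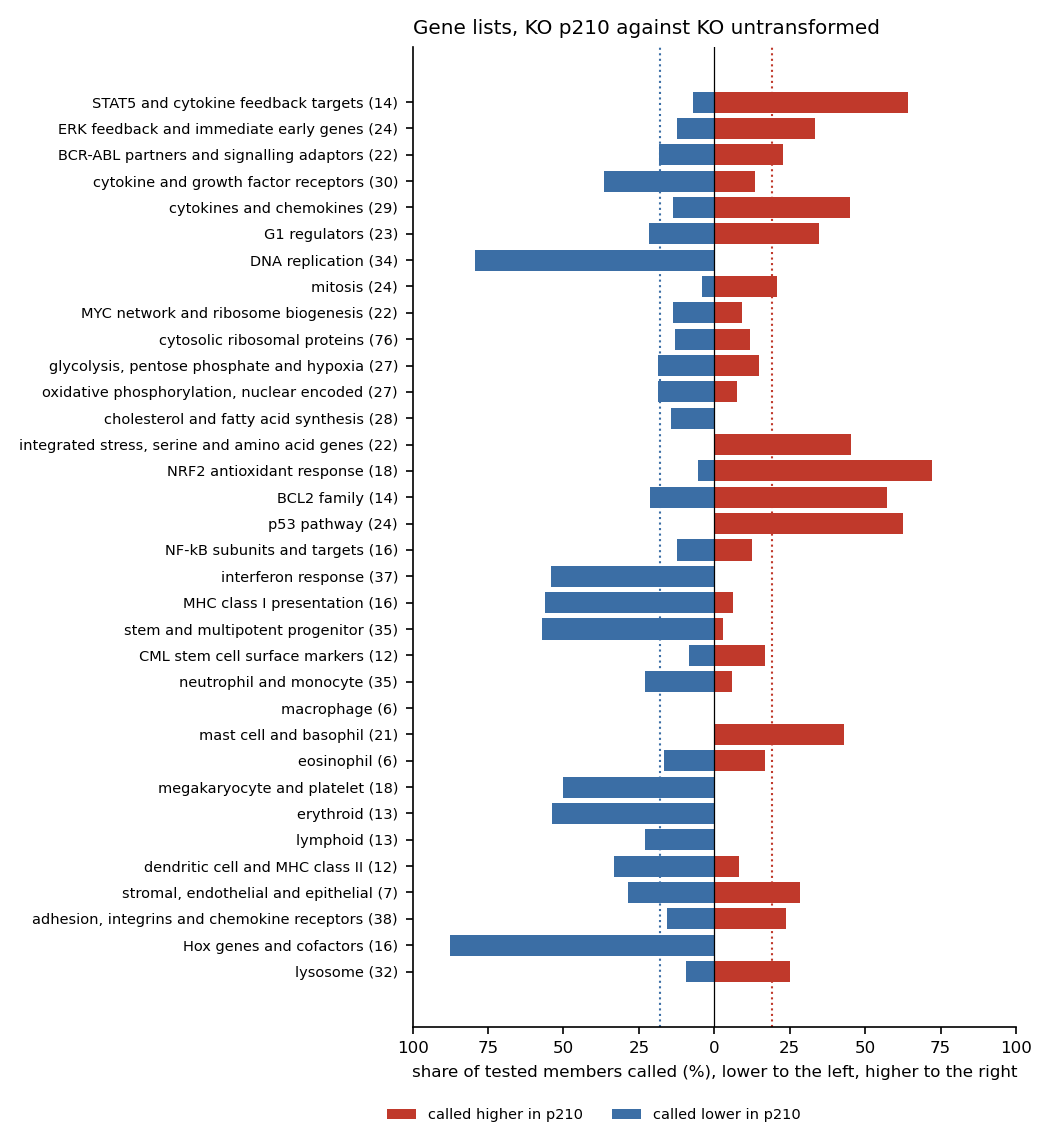
Share of tested members called higher (right) or lower (left) in p210 against untransformed KO libraries for each gene list, in percent, with dotted lines at the background of all genes tested (19.2% higher, 18.0% lower). NRF2 and p53 targets and the STAT5 feedback list lie furthest to the right, and Hox genes and DNA replication furthest to the left.

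Of the 17 stromal, endothelial and epithelial markers, 7 could be tested, 2 of them higher (1 by limma-voom) and 2 lower (1 with the line as a block). Those higher were Cdh1 and Epcam, and Epcam had 29 counts before and 1535 after transformation. Pdgfrb, an abundant member, had 6398 and 3113 counts and was not called. Among those not tested the fibroblast collagen gene Col1a1 had 7 counts before and 43 after transformation, while the matrix genes Dcn and Lum had none. Cdh1 (chromosome 8, 106603351 to 106670246, GRCm38), which encodes E-cadherin and is also made by mast cells and basophils, went from 1.55, 1.14 and 0.413 CPM to 295, 237, 539.7 and 577 CPM and was high in all 4 p210 libraries (8.75 ± 1.06, adjusted p = 0.000133). Kdr, the VEGF receptor of endothelium and progenitors, had 356 counts before and 1 after, a ratio of 380 (95% exact interval 67.8 to 15100). Of 38 adhesion, integrin and chemokine receptor genes, 9 were higher and 6 lower (4 and 4 with the line as a block), shares near the background of 19.2% and 18.0%. Itgav, the alpha V integrin, rose from 49.8, 59.2 and 52.9 CPM to 83.8, 85.7, 74.9 and 93.2 CPM (0.65 ± 0.10, adjusted p = 0.000403), and F11r, the junctional adhesion molecule A, fell from 19.9, 15.3 and 15.6 CPM to 1.62, 0.927, 1.34 and 0.858 CPM (-3.84 ± 0.40, adjusted p = 5.77e-05). Of 32 lysosome genes, 8 were higher and 3 lower, beside the same background (3 and 1 with the line as a block, and 9 lower without KO p210 replicate 4). With scaling by total counts 4 were higher and 5 lower, with upper-quartile scaling 5 and 5, and within code KO_080219 4 and 6. Leaving out KO untransformed replicate 1 or 3 left 4 higher, and leaving out KO untransformed replicate 2 or KO p210 replicate 1 left 5.

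The largest single changes, taken among genes at 5 CPM or more in the higher state, were often from or to near absence. Stfa1 and Stfa2, cysteine protease inhibitors of the stefin A cluster, had no counts in the untransformed libraries and 1160 and 837 in p210 libraries, at least 362-fold and at least 261-fold higher when 3 counts over the untransformed group are taken as the floor. Stefin genes are near-identical copies and their shares are uncertain. Ccn3, a secreted matricellular protein, went from 0.409, 0.431 and 0.118 CPM to 1735, 791, 95.01 and 29.8 CPM, widely spread among the p210 libraries (11.19 ± 1.69, adjusted p = 0.0005, and 0.117 by limma-voom). Lce6a and Prl2c5 were likewise without counts before, and at least 185-fold and at least 149-fold higher after. Tcrg-C1, a constant segment of the T cell receptor gamma locus, had 2 counts before and 3240 after, a ratio of 1520 (95% exact interval 420 to 12500). By limma-voom, Stfa1, Stfa2 and Tcrg-C1 did not pass (adjusted p = 0.0538, 0.122 and 0.0964). Among the falls, Pla2r1, the M-type phospholipase A2 receptor, had 432 counts before and none after, at least 154-fold lower. Gatm, the first enzyme of creatine synthesis, fell from 52.6, 67.7 and 30.1 CPM to 0, 0, 0.0291 and 0.234 CPM (-9.47 ± 1.82, adjusted p = 0.00205, and 0.126 by limma-voom). Kcnk12, a potassium channel, had 799 counts before and 1 after, a ratio of 853 (95% exact interval 153 to 33700), and Arhgap32, a GTPase-activating protein, 2276 and 3, a ratio of 810 (277 to 3930).

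Within the 3 lines measured in both states, 9203 of the genes tested (63.42%) changed in the same direction in all 3, and 5303 of the 5395 called genes (98.29%) did. On the log2(CPM + 1) scale, which understates changes of low genes, 409 genes rose and 526 fell past 2-fold in all 3 lines. Line KO_080219_A had 949 genes up and 1250 down past 2-fold, KO_080219_B had 704 and 1189, and KO_140119_B had 1101 and 942. Socs2 changed by 4.28, 4.34 and 4.04 in lines KO_080219_A, KO_080219_B and KO_140119_B, and B2m by -1.26, -1.26 and -1.30, nearly alike. Cdh1 changed by 6.86, 6.80 and 8.68, larger in KO_140119_B. Ccn3 changed by 10.27, 9.11 and 4.78, smaller in KO_140119_B. Thy1, a surface glycoprotein of T cells and stem cells, changed by 9.16, 8.08 and -0.23. It stood at 1633, 713, 473 and 0.273 CPM in p210 replicates 1 to 4 and 1.86, 1.65 and 0.491 CPM in untransformed ones, so it was high in 3 p210 libraries and at the untransformed level in replicate 4, and its call (adjusted p = 0.0038) was lost with the line as a block (0.0792). Cd5l, a protein secreted by macrophages, changed by -4.17, -4.41 and 6.20, with 26.3, 23.5 and 7.21 CPM before and 0.523, 0.155, 1.66 and 605 CPM after transformation. It did not pass the test over all libraries (adjusted p = 0.272), and without KO p210 replicate 4 it was lower (-4.56, adjusted p = 0.00999). Igf1, Cd36, Ltf and Pltp had the same form, each highest in p210 replicate 4, and Pltp passed without it (adjusted p = 0.593, and 0.00555 without replicate 4). Ltf, the neutrophil granule protein lactoferrin, was at 21.2, 34.03 and 16.3 CPM and then 3.40, 24.7, 3.46 and 546 CPM. The calprotectin gene S100a9 was at 199.9, 381 and 299 CPM and then 95.6, 1586, 762 and 5475 CPM, lowest in p210 replicate 1 and highest in replicate 4 (adjusted p = 0.119). Over the whole lists, replicate 4 was the highest of the p210 libraries in 23 of 35 neutrophil and monocyte genes and 5 of 6 macrophage genes tested. Their summed levels in p210 replicates 1 to 4 were 11930, 17930, 13380 and 29310 CPM for the neutrophil and monocyte list and 653, 375, 241 and 1027 CPM for the macrophage list. Untransformed libraries held 27570 to 38140 and 343 to 569 CPM. Whether replicate 4 holds more such cells was not tested.

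**Figure D4:**
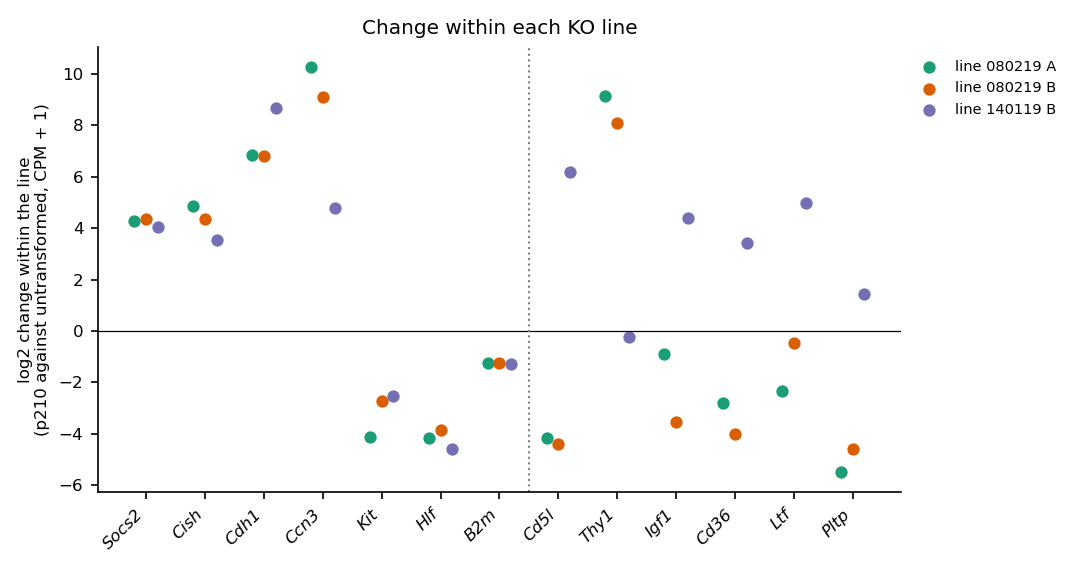
log2 change (CPM + 1) from untransformed to p210 within each of the 3 KO lines with both states, for 7 genes with calls at the left and the 6 genes with the widest spread between lines at the right, 1 point per line. The genes at the left move in the same direction in all 3 lines, while Cd5l, Igf1, Cd36, Ltf and Pltp rise in line KO_140119_B and fall in the other lines, and Thy1 rises in the 2 lines of code KO_080219.

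The change with p210 was set beside that in WT lines, which share no library with it but stand in the same fit. Among WT lines 5727 genes passed, 3173 higher and 2554 lower. A test of the difference between the changes found 5 genes (0.0345% of those tested), while 2041 had an unadjusted p under 0.05. All 5 had the lower change in KO lines: Arhgef5, a guanine nucleotide exchange factor, Tceal8, a transcription elongation factor-like protein, Slc43a1, a transporter of large neutral amino acids, Nxpe5, and Ifitm2, an interferon-induced membrane protein. Slc43a1 was at 38.4, 39.5, 35.6 and 40.4 CPM in WT untransformed and 8.57, 7.22 and 2.54 CPM in WT p210 libraries, and at 19.1, 15.8 and 21.5 CPM and then 0.314, 0.0772, 0.0873 and 0.117 CPM in KO libraries. It was lower with p210 in both genotypes, and nearly lost only in the KO libraries (difference of log2 fold changes -4.41 ± 0.58, adjusted p = 0.0306). Tceal8 was at 16.2, 27.3, 30.8 and 32.4 CPM and then 9.14, 8.87 and 7.72 CPM in WT libraries, and at 16.6, 25.7 and 8.86 CPM and then 0, 0, 0 and 0.156 CPM in KO libraries (-7.01 ± 0.89, adjusted p = 0.0306). Arhgef5 had 569 counts before and 2 after in KO libraries, a ratio of 304 (95% exact interval 83.7 to 2510). Before transformation it was at 4.68, 2.98 and 7.665 CPM in KO libraries, already below the WT ones at 17.4, 20.6, 9.75 and 14.5 CPM. In WT p210 libraries it was at 17.2, 5.14 and 12.03 CPM (difference of log2 fold changes -7.33 ± 0.88, adjusted p = 0.0306). Nxpe5 was at 144, 160.3 and 162 CPM in KO untransformed libraries, above all 4 WT ones at 51.4, 51.6, 34.7 and 43.9 CPM, and both genotypes were alike with p210, the KO at 28.1, 26.6, 19.4 and 30.1 CPM and the WT at 44.2, 24.2 and 28.1 CPM (-2.08 ± 0.30, adjusted p = 0.0409). Ifitm2 moved in opposite directions, from 231, 248, 218 and 257 CPM to 309.7, 306 and 295 CPM in WT libraries and from 322, 296 and 323 CPM to 239.9, 224, 261 and 221 CPM in KO libraries (-0.76 ± 0.11, adjusted p = 0.0409).

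These 5 calls were not stable. None passed with the line or the title number as a block or with the number of sequencing runs as a term, and no gene did without KO untransformed replicate 1 or 3, the library labelled KO p210 replicate 2, or WT untransformed replicate 2 or 4. A single gene passed without KO untransformed replicate 2 or WT untransformed replicate 3. Leaving out other libraries gave up to 50 genes (without WT p210 replicate 3), with 43 without KO p210 replicate 4, 26 without WT p210 replicate 2, 13 without KO p210 replicate 1 and 8 without WT untransformed replicate 1, and DESeq2 called 413. Some lists are therefore given side by side. The median log2 fold change was 0.96 in KO and 0.89 in WT lines for STAT5 feedback genes, -0.43 and -0.65 for DNA replication, and 0.85 and 0.90 for p53 targets. It was -0.80 and -0.20 for interferon-stimulated genes, -1.51 and -1.06 for stem and progenitor genes, and -6.00 and -1.90 for Hox genes, where no member passed the test of the difference. With the 4 Hox genes that had no p210 count set to the bound of 3 counts over the group, the KO median for Hox genes was -5.12. Of the interferon-stimulated genes, Ifitm2 alone passed it, and Oasl2, at -7.05 ± 0.64 in KO and -2.48 in WT lines, had an adjusted p of 0.0848. While the lists above share a sign, other lists had medians of opposite sign in KO and WT lines. Among these were macrophage (-1.33 and 0.89), neutrophil and monocyte (-0.30 and 0.51), lysosome (-0.14 and 0.73) and cytokine receptor genes (-0.49 and 0.16). No member of these named lists passed the test of the difference.

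**Figure D5:**
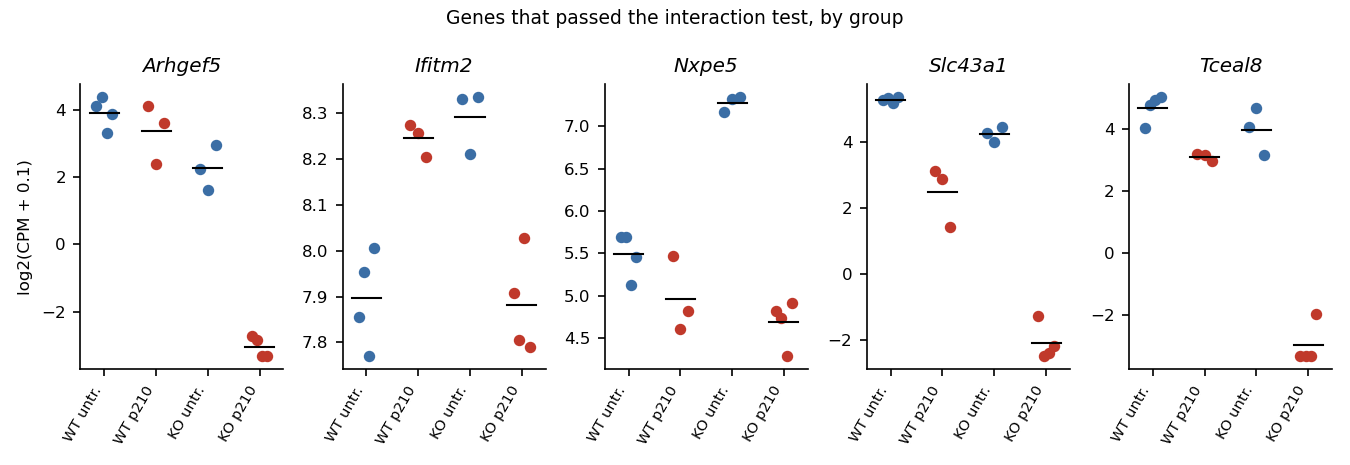
log2(CPM + 0.1) of the 5 genes whose change with p210 differed between genotypes, 1 point per library in the 4 groups (WT untransformed, WT p210, KO untransformed, KO p210). Arhgef5, Slc43a1 and Tceal8 lie near the bottom of the axis only in KO p210 libraries, while Nxpe5 is raised in KO untransformed libraries and Ifitm2 is lower in KO p210 libraries.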

How the data were processed

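RNA sequencing of 7 KO libraries (3 untransformed, 4 p210) was analysed, with 7 WT libraries in the same fit. The submitters' processing notes name Trimmomatic, STAR and featureCounts and the build GRCm38, without versions for the first and second of these tools. Per the file headers, the authors made the raw counts per gene with featureCounts 1.5.1, counting reads on the reverse strand of GENCODE M13 genes. The TPM values, also deposited, follow from these counts and the gene lengths within 0.05 and were used only to rank abundant genes. Symbols were found for 50376 of 50686 genes.

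Differences between groups were tested on the counts in R 4.3.3 by edgeR 4.0.16 (quasi-likelihood F-test, robust, TMM, Benjamini-Hochberg over all genes tested, threshold 0.05), with all 14 libraries in 1 fit of 4 groups. Its default filter on low counts, with minima of 10 per library and 15 in total, kept 14512 genes. The step was tested on simulated data for the comparison of KO states. It recovered 46 of 100 genes changed 2-fold and 72 of 100 changed 4-fold, with 1 false call. Far fewer genes were changed in the simulation than were called in the data. Its shares need not hold for the real comparison, where changes of such size can also be missed. Counts ranged from 20912805 to 50303271 per KO library, and 3 counts over a group stood for 0.0305 CPM (untransformed) or 0.0286 CPM (p210). Reads are not independent molecules, and intervals cover counting error only. Code and letter in the descriptions pair 3 KO lines, and same-line deviations from the group means correlated at 0.062, 0.08 and 0.021, beside -0.1 to 0.069 for the 9 KO pairs of different lines. Values with the line as a block are given where they change a call or move a count by over 1.5 times.

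The members and lists were chosen with earlier results of these data known. The rule for named genes took the largest changes at 5 CPM or more without overlap, per list the 4 members with the smallest adjusted p and the 2 most abundant, the largest interactions, and the 6 genes with the widest spread between lines. The members Bcl2l2, Bcl6, Cdk2, Cma1, Csf1, Ctsg, Fcer1a, Flt3, Fth1, H2-T23, Hoxa2, Hoxa3, Hoxa9, Hoxa10, Il10, Il10ra, Il13, Il6ra, Il6st, Lifr, Ly6a, Mcpt4, Mcpt8, Nlrc5, Pf4, S100a9, Slamf1, Sod2, Tpsb2, Cdkn2d, Col1a1, Dcn and Lum were named outside its order, after their values were seen. Some genes that the rule takes are not reported here. Alternatives were DESeq2 1.42.0, limma-voom (limma 3.58.1), other scalings and filters, KO libraries alone, code, sequencing runs, and leaving out each library.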

Additional observations from a re-analysis of the deposited data

Results flagged for a closer look

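For 14 of 105 screened genes that reached 5 CPM in a p210 library, 1 KO p210 library lay apart from the other 3. The gap was more than 0.83 of the range of the group, which chance gives in about 1 of 20 groups of 4 normally distributed values. The genes screened are those named in the text. Cd5l, Ltf, Cd36, Pltp and Igf1 were named for their wide spread between lines, so the number flagged cannot be read against that rate. Epcam and Pdgfrb were not among the genes screened. KO p210 replicate 4 was the highest for Cd5l (604.5 CPM), Ltf (545.6 CPM), Cd36 (452.6 CPM), Pltp (133.2 CPM), Igf1 (132.0 CPM), Mrc1 (51.24 CPM) and Bcl6 (27.57 CPM), and the lowest for Atf4 (329.2 CPM). KO p210 replicate 1 was the highest for Il10ra (235.1 CPM), Bak1 (225.7 CPM), Il6 (146.8 CPM) and Polk (36.79 CPM), and the lowest for Nlrc5 (4.233 CPM). The library labelled KO p210 replicate 2 was the lowest for H2-T23 (189.7 CPM). Il6, Il10ra, Bak1, Polk, Nlrc5 and H2-T23 passed the test in the comparison of states, and the others did not.

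The test of the difference between KO and WT lines in the change with p210 passed for Arhgef5 (-7.331, log2 scale), Tceal8 (-7.012), Slc43a1 (-4.412), Nxpe5 (-2.082) and Ifitm2 (-0.755), each with the lower change in KO lines.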

How the results depend on the processing

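No gene called over all libraries was called in the opposite direction under any alternative of the comparison between states. Against 5395 calls over all libraries, 3586 passed with the replicate block by line (1709 lower), 73 within code KO_140119 (30 higher, 43 lower), 1456 among libraries of 1 sequencing run (822 and 634) and 558 among those of 2 runs (257 and 301, an alternative chosen after seeing the data). A 2-fold threshold left 2224 (1037 and 1187). Leaving out 1 library gave 3957 to 5673, and the other scalings, filters and tools stayed within 1.5 times of the count. The 5 calls of the difference between genotypes became 413 with DESeq2, 3 with scaling by total counts, 32 within code KO_080219, and 0 with either replicate block (by line or by title number), within code KO_140119, among libraries of 1 run or with runs as a term, and 0 to 50 without single libraries. Lists with at least 1 call, each direction taken apart, fell in number from 57 to 12 within code KO_140119. Genes that rose and fell past 2-fold in all 3 lines numbered 640 and 929 with a pseudocount of 0.1 CPM, and 261 and 250 with 5 CPM, since a larger pseudocount shrinks low genes. Cd5l, without a call over all libraries, was lower and called with the block by title number (-4.465), within code KO_080219 (-6.253) and without KO p210 replicate 4 (-4.562), and its value without single libraries went up to 3.419. Ltf was lower among libraries of 1 run (-3.006). Apart from the smaller number of libraries in the settings that leave some out, the cause was not tested. With 3 untransformed and 4 p210 libraries, genes with few counts or a wide spread between lines are the least precisely measured.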
